A study of Mus musculus with 2 samples.

Results

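The mouse genome carries its replication-dependent core and linker histone genes in clusters, and the deposited gene table listed 69 symbols that start with Hist1h, Hist2h, Hist3h or Hist4h. Of these, 65 genes had a transcript in more than 3 of the deposited cells and were taken as members, among 17115 genes that passed the same filter and 28692 genes listed. By histone class there were 6 H1, 18 H2A, 16 H2B, 12 H3 and 13 H4 members, and by cluster 51 Hist1, 11 Hist2, 2 Hist3 and 1 Hist4 members. The 4 symbols left out were Hist1h2bq, Hist1h2br and Hist1h2aa, each with 2 UMIs (unique molecular identifiers, 1 per captured RNA molecule), and Hist1h2ba with 3 UMIs. The members nearest to the limit on the inside were Hist1h4m and Hist1h1t, each detected in 11 cells. The symbol Hist2h2bb stood on 2 gene identifiers, which are kept apart below as ENSMUSG00000105827 and ENSMUSG00000050936.

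Replication-dependent histone genes supply the histones that package newly copied DNA, so their RNAs are known for accumulating in S phase and being degraded when DNA synthesis ends. H2A, H2B, H3 and H4 form the octamer around which DNA is wrapped, and H1 binds the linker between nucleosomes. Most of these RNAs end in a conserved stem-loop, bound by the stem-loop binding protein SLBP, in place of a poly(A) tail, although some of the genes can also give polyadenylated RNAs in cells that have left the cycle. The libraries were primed on poly(A), and thus the counts describe the histone RNAs that such priming captured, not the whole histone RNA pool.

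Retinal cells came from embryonic (E14.5) mice of the strain Tg(Lhx4::EGFP)KN199Gsat/Mmucd, in which a bacterial artificial chromosome with Lhx4 regulatory sequence drives GFP in early cone photoreceptors. Both groups carried the reporter, neither received a treatment, and retinas of 2 litters had been pooled before sorting into a GFP+ and a GFP− fraction. Each fraction was 1 library of the 10x Chromium 3′ v2 chemistry, so animals cannot be separated and no value below has a replicate. All intervals in parentheses are exact 95% intervals on UMI or cell counts and cover counting error only. No p-values are given.

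The GFP+ library held 3728 cells and 16010591 UMIs and the GFP− library 4445 cells and 46778924 UMIs. After limits of 250 to 3500 genes per cell and a mitochondrial fraction under 0.25, 3689 GFP+ cells (median 3894 UMIs) and 3391 GFP− cells (median 8853 UMIs) were kept. The upper gene limit removed 1.05% of GFP+ but 23.7% of GFP− cells, and 20 barcodes occurred in both libraries. The methods print the mitochondrial limit as a percentage, which only 3 GFP+ and 82 GFP− cells would meet, and it was therefore read as a fraction. Cells were classed without any member. The S-phase class needed 3 or more UMIs of Mcm2 to Mcm7 (the replicative helicase), a UMI of Top2a (DNA topoisomerase II alpha) and more Mcm than mitotic UMIs. The G1/S class needed the same Mcm level with no Top2a, and the G2/M class needed Top2a, 3 or more UMIs of a list of 7 mitotic genes, and at least as many mitotic as Mcm UMIs. The mitotic genes were Ccnb1, Cdc20, Plk1, Aurka, Cenpe, Ube2c and Cenpa, the last of which encodes a centromeric variant of histone H3. Postmitotic cells had at most 1 Mcm and 1 mitotic UMI and no Top2a, and were then assigned by marker lists to cones, ganglion cells or amacrine/horizontal cells. These are classes of transcripts, and DNA content was not measured.

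In the GFP− library 668 cells were S-phase, 654 G2/M, 926 G1/S, 265 ganglion, 203 amacrine/horizontal and 45 cone cells. In the GFP+ library 3141 cells (85.1%) were postmitotic cones, and only 5 were S-phase and 9 G2/M cells. Rrm2, a ribonucleotide reductase subunit of S phase that was not used for classing, stood at 308 counts per 1000000 UMIs (CPM) in S-phase, 142 CPM in G2/M and 0.87 CPM in GFP+ cones. In G1/S cells Rrm2 was at 115 CPM, so that class also held S-phase transcripts. Gngt2, a cone transducin subunit, was found in 97.6% of GFP+ cones and in 0.75% of ganglion cells. Over all kept GFP+ cells, whatever their class, it was found in 95.7%. The 45 GFP− cones were less distinct, with Gngt2 in 73.3% of cells, cone markers at 2166 CPM against 4520 CPM in GFP+ cones, and progenitor markers at 172 against 37.9 CPM.

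The 3′ ends of the members were read from the GENCODE vM21 transcript models (GRCm38), because priming takes place there. Of 63 members in that annotation, 42 contained the histone stem-loop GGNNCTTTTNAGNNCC, and 15 had a poly(A) signal (AATAAA or ATTAAA) in the last 60 bases of a transcript model. Models of the other members often ended near the stop codon, so a missing stem-loop says only that the letters are not in the model. Windows of members from both ends of the range of cone over S-phase ratios, picked after values were seen, are shown first with the stem-loop in capitals, and Hist1h2ao is added because its window repeats that of Hist1h2ap.

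Hist1h2ap: agaaaaaaaaaaaaGGCTCTTTTCAGAGCC
Hist1h2ao: agaaaaaaaaaaaaGGCTCTTTTCAGAGCC
Hist1h3c: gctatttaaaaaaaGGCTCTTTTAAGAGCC
Hist3h2ba: gcccccaacccaaaGGCTCTTTTCAGAGCC
Hist3h2a: ttacagacaccaaaGGCTCTTTTCAGAGCC
Hist2h3c1: ccattccccacaaaGGCTCTTTTCAGAGCC

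Hist1h2ap and Hist1h2ao were the only members with a run of 10 or more A directly in front of the stem-loop (12 A in each). Hist3h2ba, Hist3h2a and Hist2h3c1 continued past the stem-loop for 169, 1643 and 1167 bases. For the following members the last 30 bases of the model are shown instead, with the poly(A) signal in capitals.

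Hist3h2ba: attAATAAAtttggttcaattttggccaca
Hist2h3c1: taatcccAATAAAaatttaacacactgcta
Hist1h1c: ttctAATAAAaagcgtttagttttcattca

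All 65 members together reached 7381 CPM (7314–7448) in S-phase cells, 10257 CPM (10179–10334) in G2/M cells and 1661 CPM (1633–1689) in G1/S cells of the GFP− library. They did not disappear from postmitotic cells, with 3132 CPM (3101–3163) in GFP+ cones, 2325 CPM (2133–2530) in GFP− cones, 2394 CPM (2335–2453) in ganglion cells and 2391 CPM (2311–2473) in amacrine/horizontal cells. In UMIs per cell the same order of S-phase over postmitotic cells held, with 69.6 in S-phase cells, 12.6 in GFP+ cones, 24.1 in ganglion cells and 16.5 in amacrine/horizontal cells. A UMI of any member was found in 98.6% (98.1–98.9) of 3689 GFP+ cells and in 99.2% (98.8–99.5) of 3391 GFP− cells. These shares were taken at unequal depth, with medians of 3894 and 8853 UMIs. With cells thinned to the same depth, they were 98.8% (98.3–99.1) of 3110 GFP+ and 94.6% (93.8–95.4) of 3363 GFP− cells. Most cells of both gates thus held a member UMI, and the GFP+ share was the higher one at equal depth.

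The make-up of these totals differed. Hist1h2ap, an H2A gene on chromosome 13 (ENSMUSG00000094777, chr13:21833026-21833507, minus strand, GRCm38), provided 63.7% of member UMIs in S-phase cells but 6.05% in GFP+ cones, 5.10% in ganglion cells and 3.14% in amacrine/horizontal cells. The Hist3 pair, Hist3h2a and Hist3h2ba, neighbouring H2A and H2B genes on chromosome 11 (chr11:58954685-58956830 and chr11:58948920-58949533, both on the plus strand), provided 2.78% of member UMIs in S-phase cells. Their share was 36.0% in GFP+ cones, 44.0% in GFP− cones, 62.7% in ganglion cells and 68.1% in amacrine/horizontal cells. The other 62 members are described by their sum and by name below.

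**Figure D1:**
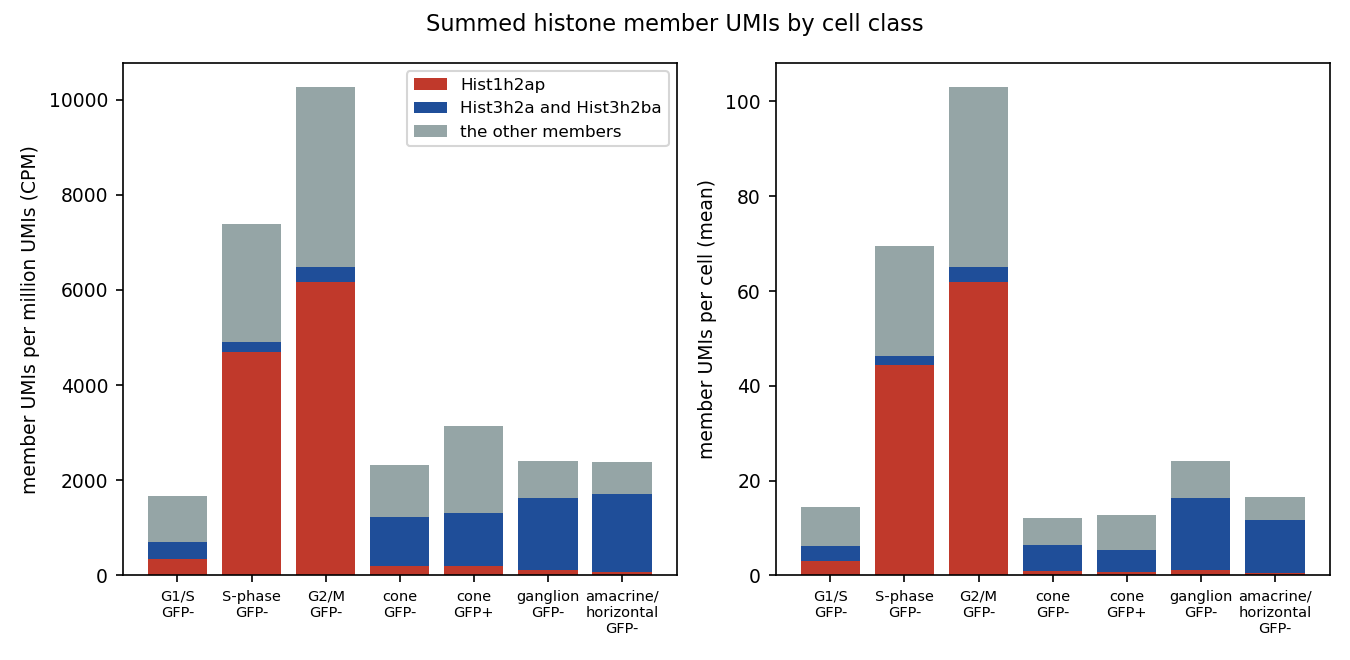
Stacked bars of summed member UMIs in each cell class, as CPM (left) and as mean UMIs per cell (right), for Hist1h2ap, the Hist3 pair and the other members. Hist1h2ap was the largest block in S-phase and G2/M cells and the smallest in all postmitotic classes, whereas the Hist3 block was the largest in ganglion and amacrine/horizontal cells. Each bar is 1 library, without error bars.

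Hist1h2ap was the member with the highest level in cycling cells. Its level was 348 CPM in G1/S, 4698 CPM (4644–4752) in S-phase and 6160 CPM (6100–6220) in G2/M cells, against 190 CPM (182–197) in GFP+ cones, 198 CPM (145–264) in GFP− cones, 122 CPM (109–136) in ganglion and 75 CPM (61.4–90.8) in amacrine/horizontal cells. The S-phase level was 24.8 times that of GFP+ cones in CPM and 57.8 times in UMIs per cell. Both cone classes had the same level within counting error, with a GFP+ to GFP− ratio of 0.959 (0.717–1.31).

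Hist1h2ap UMIs were also counted in postmitotic cells. The gene was found in 90.9% of S-phase cells, 42.8% of GFP+ cones, 53.6% of ganglion cells and 34.5% of amacrine/horizontal cells, at median depths of 9416, 3817, 10341 and 6650 UMIs. With every cell thinned to 3200 UMIs, which left out 535 cones, 1 ganglion cell and 1 amacrine/horizontal cell, the shares were 82.6%, 37.8%, 27.7% and 19.3%. Fgf15, a progenitor gene that neurons and cones should lack, was found in 34.0% of ganglion cells and 33.5% of amacrine/horizontal cells without thinning. After thinning these shares were 12.9% and 23.3%, so that Hist1h2ap was above Fgf15 in ganglion cells and below it in amacrine/horizontal cells. Relative to S-phase cells, ganglion cells held 0.026 of the level of Hist1h2ap, and 0.025 of Fgf15 and 0.027 of Ccnd1, which encodes cyclin D1. Amacrine/horizontal cells held 0.016, 0.084 and 0.021. In the 45 GFP− cones, of which 31.1% had a Fgf15 UMI, these values were 0.042 for Hist1h2ap, 0.029 for Fgf15 and 0.0096 for Ccnd1. In GFP+ cones they were 0.040, 0.00092 and 0.004, and Fgf15 was found in 0.70% of cells (0.69% after thinning), far below the 42.8% for Hist1h2ap. Free RNA differs between libraries, and its part in the Hist1h2ap counts of postmitotic cells was not tested.

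The cycling GFP− cells were then ordered by markers that are not members, using Rrm2 to split G1/S and the summed mitotic genes to split S-phase and G2/M. Hist1h2ap stood at 193 CPM in G1/S cells without Rrm2 and at 496 CPM in those with Rrm2. It was at 2499 CPM in S-phase cells without a mitotic UMI, at 5680 CPM in those with one, and highest at 8267 CPM in G2/M cells with 3 to 9 mitotic UMIs. It was lower again, at 6212 and 4181 CPM, in cells with 10 to 29 and with 30 or more mitotic UMIs. The other 62 members followed another course, with 802, 1105, 2155, 2622, 3254, 3756 and 4286 CPM over the same 7 bins, and their highest level was in the most mitotic cells. The Hist3 pair was highest in G1/S cells without Rrm2 (511 CPM), lowest in S-phase cells without a mitotic UMI (161 CPM) and at 387 CPM in the most mitotic cells. The bins hold 186 to 472 cells each, and the intervals of neighbouring bins overlapped in the Hist3 series between mitotic UMIs of 3 to 9 and 10 to 29.

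**Figure D2:**
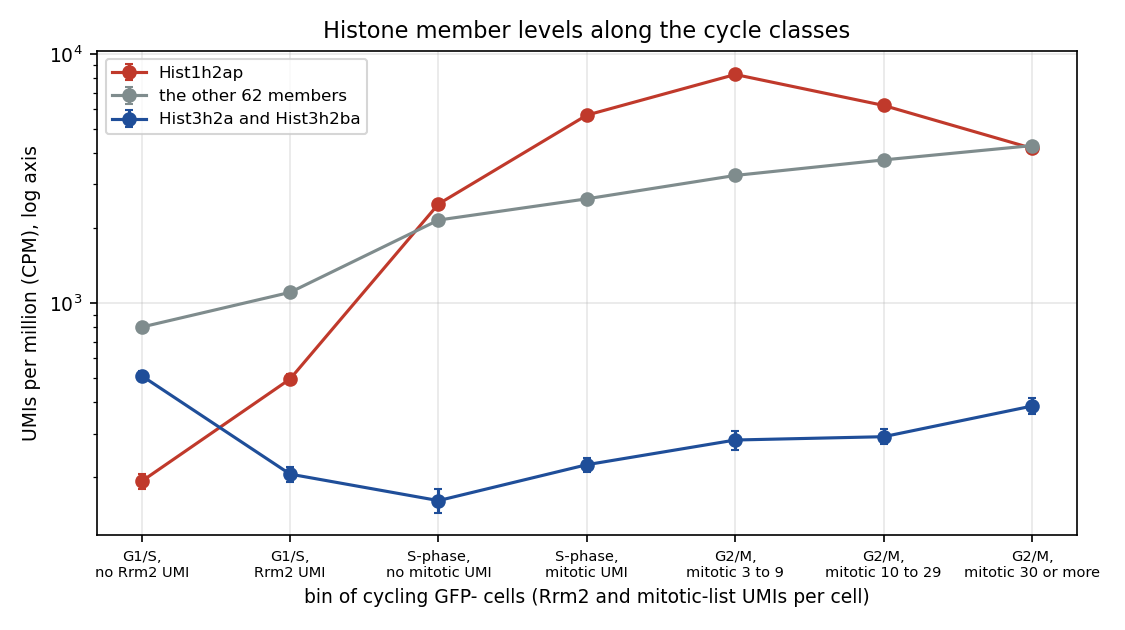
Levels (CPM, log axis) of Hist1h2ap, the other 62 members and the Hist3 pair in 7 bins of cycling GFP− cells, ordered by Rrm2 and by UMIs of 7 mitotic genes; bars are exact 95% Poisson intervals. Hist1h2ap was highest at 8267 CPM in the first G2/M bin, while the other members were highest, at 4286 CPM, in the last bin.

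Nearly all members shared the higher level in S-phase over G1/S cells. Of 62 members with at least 10 UMIs in both classes together, 51 were 2-fold or more higher in S-phase cells, whereas 3.84% of 13007 genes were. The median log2 ratio was 1.48 for the members and −0.05 for all genes. Hist1h2ap had the highest ratio (13.5), followed by the H2A gene Hist1h2ah (7.22) and the H2B gene Hist1h2bf (7.13), the last named after values were seen. The members below 1 were Hist2h3c2, Hist3h2a, Hist3h2ba and Hist2h3c1, with ratios of 0.214, 0.547, 0.585 and 0.895. Hist2h3c2 was thus the 1 member 2-fold or more lower in S-phase cells, against 5.02% of genes.

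Between S-phase and G2/M cells the members leaned to G2/M. None of 61 members was 2-fold or more higher in S-phase cells, against 5.59% of 12638 genes, and 3 members were 2-fold or more lower, against 3.77% of genes. The 3 lower members, named after values were seen, were all on the Hist2 cluster: Hist2h2ab (0.348), Hist2h2ac (0.389) and Hist2h2bb of ENSMUSG00000105827 (0.440). The median log2 ratio of S-phase over G2/M was −0.61 for members and 0.01 for all genes. Only 3 members were at or above their G2/M level in S-phase cells, against 51.4% of genes. These were the H3 gene Hist1h3a with 1.25 (1.05–1.49), the H1 gene Hist1h1a with 1.15 (1.02–1.29) and the H4 gene Hist1h4a with 1.06 (0.836–1.33). In UMIs per cell, Hist1h4a was just under 1 (0.992), and the count of members 2-fold or more lower was 9, against 571 of the 12638 genes.

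S-phase cells of the GFP− library were next compared with postmitotic cones of the GFP+ library. The total was 2.36 times higher (2.33–2.39) in S-phase cells in CPM and 5.50 times higher in UMIs per cell. Without Hist1h2ap, an alternative chosen after seeing the data, the total turned to 0.912, that is, lower in S-phase cells. The other 62 members were 1.37 times higher (1.34–1.39) and the Hist3 pair was at 0.182 (0.172–0.193) in CPM. Against the 45 cones of the GFP− library, the total was 3.17 times higher in S-phase cells.

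Member by member, 30 of 63 tested members were 2-fold or more higher in S-phase cells, against 15.4% of 13898 genes. This number was 49 in UMIs per cell, against 5835 of the 13898 genes, because that scale moves the median log2 ratio of all genes by 1.22. In UMIs per cell, a cone level at or above the S-phase level was seen for 7 members, against 3507 of the 13898 genes. In CPM it was seen for 15 of 63 members, against 65.4% of all genes. For 11 of these 15 members the interval lay above 1. The cone level was under 0.1 of the S-phase level for 5 members, from 0.1 to 0.5 for 25 and from 0.5 to 1 for 18. Hist1h1t (an H1 gene known from testis) and Hist1h4m had fewer than 10 UMIs and were not compared.

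The members with the lowest cone level relative to S-phase cells were 3 H3 and 2 H2A genes. Hist1h3c was at 23.7 CPM (149 UMIs) in S-phase and 45.8 CPM in G2/M cells and at 0.32 CPM (4 UMIs) in GFP+ cones, a cone over S-phase ratio of 0.013 (0.004–0.035). It was counted in 19.6% of S-phase cells and in 0.127% of 3141 cones. No Hist1h3c UMI was found in 265 ganglion cells or 45 GFP− cones. A count of 0 allows up to 1.12 CPM in the ganglion class by the limit of 3 counts (exact 95% upper bound, 1.38 CPM). Hist1h3g, at 19.1 CPM in S-phase cells, had a ratio of 0.017 (0.004–0.043) and no UMI in any postmitotic class of the GFP− library. Hist1h3b was at 34.5 CPM (217 UMIs) in S-phase cells and 0.63 CPM (8 UMIs) in cones, a ratio of 0.018 (0.008–0.037). Hist1h2ap followed with 0.040 (0.039–0.042) and Hist1h2ah with 0.055 (0.017–0.138). These 5 genes differed in abundance by orders of magnitude, but each was at or under 0.1 of its S-phase level in cones and in both neuron classes.

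At the other end, 5 members were higher in cones than in S-phase cells by the greatest ratios. Hist3h2ba, an H2B gene, was at 170 CPM (160–181) in S-phase, 249 CPM in G2/M and 830 CPM (814–846) in GFP+ cones. It was at 795 CPM in GFP− cones, 1168 CPM in ganglion and 1320 CPM in amacrine/horizontal cells, which made it the most abundant member in every postmitotic class. Its cone over S-phase ratio was 4.88 (4.58–5.20) in CPM and 2.09 in UMIs per cell. Hist3h2a, the H2A gene beside it, was at 35.3 CPM (30.8–40.2) in S-phase cells, 299 CPM (289–308) in GFP+ cones, 228 CPM in GFP− cones, 333 CPM in ganglion and 308 CPM in amacrine/horizontal cells. Its ratio was 8.47 (7.40–9.74) in CPM and 3.63 in UMIs per cell. Both genes carried the stem-loop and, beyond it, a poly(A) signal near the end of the model (27 and 34 bases from the end).

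By shares of cells, too, the Hist3 pair was higher in the postmitotic classes than in S-phase cells, although the order among the postmitotic classes was not that of the CPM values. A Hist3h2ba UMI was found in 69.9% of S-phase cells, 88.6% of GFP+ cones, 98.9% of ganglion and 98.5% of amacrine/horizontal cells. After thinning to 3200 UMIs the shares were 38.3% (34.6–42.1), 87.0% (85.6–88.2), 94.7% (91.3–97.1) and 95% (91.1–97.6). Hist3h2a after thinning was found in 10.5% of S-phase cells, 56.4% of GFP+ cones, 53.4% of ganglion and 56.9% of amacrine/horizontal cells. The intervals of the postmitotic classes overlapped each other for Hist3h2a, and all lay above that of S-phase cells.

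The H3 genes Hist2h3c1 and Hist2h3c2 were also higher in postmitotic cells, at much lower counts. Hist2h3c1 was at 3.65 CPM (23 UMIs) in S-phase cells, 26.0 CPM (330 UMIs) in GFP+ cones, 21.5 CPM in GFP− cones, 15.4 CPM in ganglion and 12.1 CPM in amacrine/horizontal cells. Its cone over S-phase ratio was 7.12 (4.67–11.4). Hist2h3c2 had 2 UMIs (0.32 CPM) in S-phase cells and 85 UMIs (6.70 CPM) in cones, a ratio of 21.1 with the wide interval of 5.66 to 177. Hist2h2aa2, an H2A gene, rested on 1 and 9 UMIs, and its interval (0.62–196) included 1. None of the 90-base windows of the Hist2h3c1 or Hist2h2aa2 transcripts was unique among all transcripts, so counts of these genes depend on which reads could be placed, and they are uncertain.

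**Figure D3:**
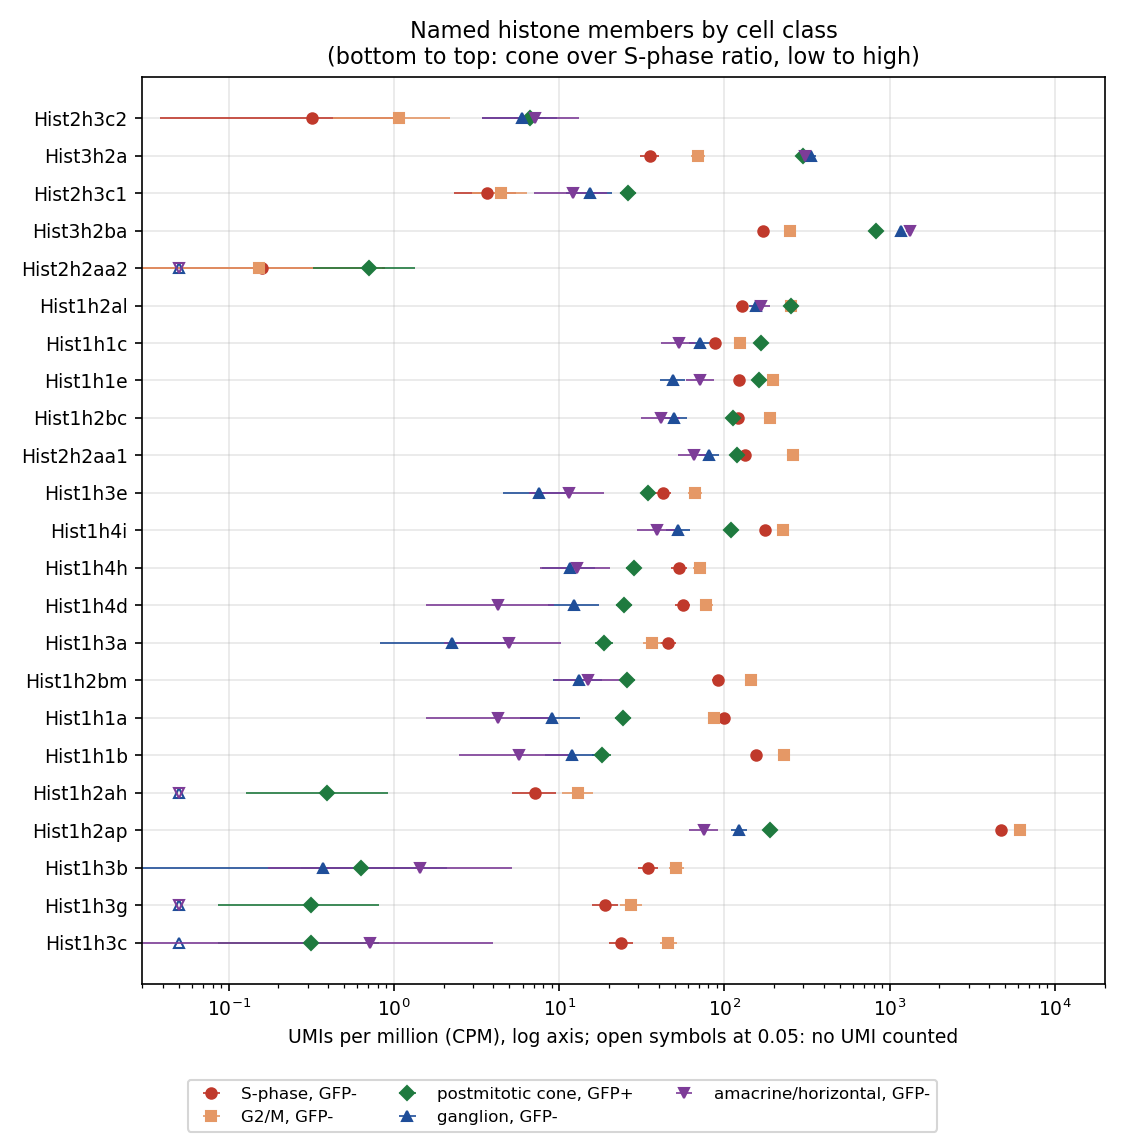
Level of the 23 members named by rule (CPM, log axis) in S-phase, G2/M, GFP+ cone, ganglion and amacrine/horizontal cells, ordered from the lowest cone over S-phase ratio (bottom) to the highest (top); bars are exact 95% Poisson intervals and open symbols mark classes with no UMI. Hist1h3c, Hist1h3g and Hist1h3b at the bottom were near 0 in postmitotic cells, Hist1h2ap lay far to the right in cycling cells, and Hist3h2ba and Hist3h2a were higher in all 3 postmitotic classes than in S-phase cells.

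Within the GFP− library, where no comparison crosses libraries, the postmitotic neurons were lower than S-phase cells for most members. The total of ganglion and amacrine/horizontal cells was at 0.324 (0.317–0.331) of the S-phase total, Hist1h2ap at 0.023, the other 62 members at 0.300 (0.288–0.311), and the Hist3 pair at 7.52 (7.08–7.99). Without Hist1h2ap the total of S-phase cells was 1.17 times that of neurons, against 3.08 times with it. Of 61 members tested, 50 were 2-fold or more lower in neurons, against 18.6% of 12764 genes. The median log2 ratio was −2.36 for members and 0.06 for all genes, and UMIs per cell shift both by −0.12.

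A neuron level at or above the S-phase level was seen for 6 of 61 members, against 52.2% of all genes. The 6 were Hist3h2a, Hist3h2ba, Hist2h3c1, Hist2h3c2, Hist1h2al and Hist2h2bb of ENSMUSG00000050936. Taken alone, ganglion cells had 6 of 61 members at or above 1, against 48.6% of genes, and amacrine/horizontal cells had 6, against 52.4%. In UMIs per cell the amacrine/horizontal count became 4, against 4238 of 12214 genes. Hist3h2a stood at 9.45 (8.15–11) and 8.74 (7.41–10.3) times its S-phase level in ganglion and amacrine/horizontal cells. Hist3h2ba stood at 6.87 (6.41–7.37) and 7.76 (7.19–8.38) times. Hist1h2al was at 127 CPM in S-phase, 155 CPM in ganglion and 166 CPM in amacrine/horizontal cells, a neuron over S-phase ratio of 1.25 (1.13–1.39) that was 0.916 after thinning. In GFP+ cones Hist1h2al was at 253 CPM, above its S-phase level in CPM but below it in UMIs per cell. The annotation lists Hist1h2al as a processed pseudogene on chromosome 13 outside the cluster (chr13:51202727-51203065), where 69.6% of 90-base windows were unique.

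In CPM, most members were higher in cones than in ganglion cells. The cone level was at or above the ganglion level for 56 of 58 members, against 68.5% of genes, and 2-fold or more for 39, against 31.3%. These counts were 27 and 13 in UMIs per cell, against 3100 and 1426 of 13456 genes, with cones at the lower depth. The 2 members below 1 were Hist3h2ba (0.711, 0.683–0.740) and Hist3h2a (0.897, 0.833–0.966). The other 62 members summed to 1814 CPM in GFP+ cones, 1105 CPM (974–1248) in GFP− cones, 770 CPM (737–804) in ganglion cells and 688 CPM (645–733) in amacrine/horizontal cells. In CPM the GFP− cones, from the same library as the neurons, were thus also higher than both neuron classes, although they held the progenitor markers and Fgf15 shares given above. In UMIs per cell these sums were 7.33 in GFP+ cones, 5.71 in GFP− cones, 7.76 in ganglion and 4.74 in amacrine/horizontal cells. On that scale both cone classes were below ganglion cells.

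Members above their S-phase level in GFP+ cones but below it in ganglion cells, both in CPM, included 2 H1 and 3 H4 genes. Hist1h1c was at 88.1 CPM (81.0–95.8) in S-phase, 124 CPM in G2/M, 166 CPM (159–173) in GFP+ cones, 120 CPM in GFP− cones and 70.8 CPM in ganglion cells. The linker histone gene Hist1h1e was at 122 CPM in S-phase cells, 163 CPM in GFP+ cones, 112 CPM in GFP− cones and 48.7 CPM in ganglion cells. In UMIs per cell the cone over S-phase ratio of both turned below 1 (0.807 and 0.570). Among H4 genes, named after values were seen, Hist1h4c was at 16.4 CPM in S-phase, 43.9 CPM in GFP+ cones, 25.8 CPM in GFP− cones and 10.1 CPM in ganglion cells, with a cone over S-phase ratio of 2.68 in CPM and 1.15 in UMIs per cell. Hist1h4n was at 39.1, 75.4, 12.9 and 18.0 CPM and Hist1h4a at 23.8, 38.9, 4.30 and 5.62 CPM in the same 4 classes. For Hist1h1e, Hist1h4n and Hist1h4a the higher level in cones was thus seen in GFP+ but not in GFP− cones. The GFP− cone values of Hist1h4n and Hist1h4a lay at or under 12.9 CPM, the level of 3 counts in that class, and are uncertain. In UMIs per cell the GFP+ cone over S-phase ratios of Hist1h4n and Hist1h4a were 0.827 and 0.700.

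**Figure D4:**
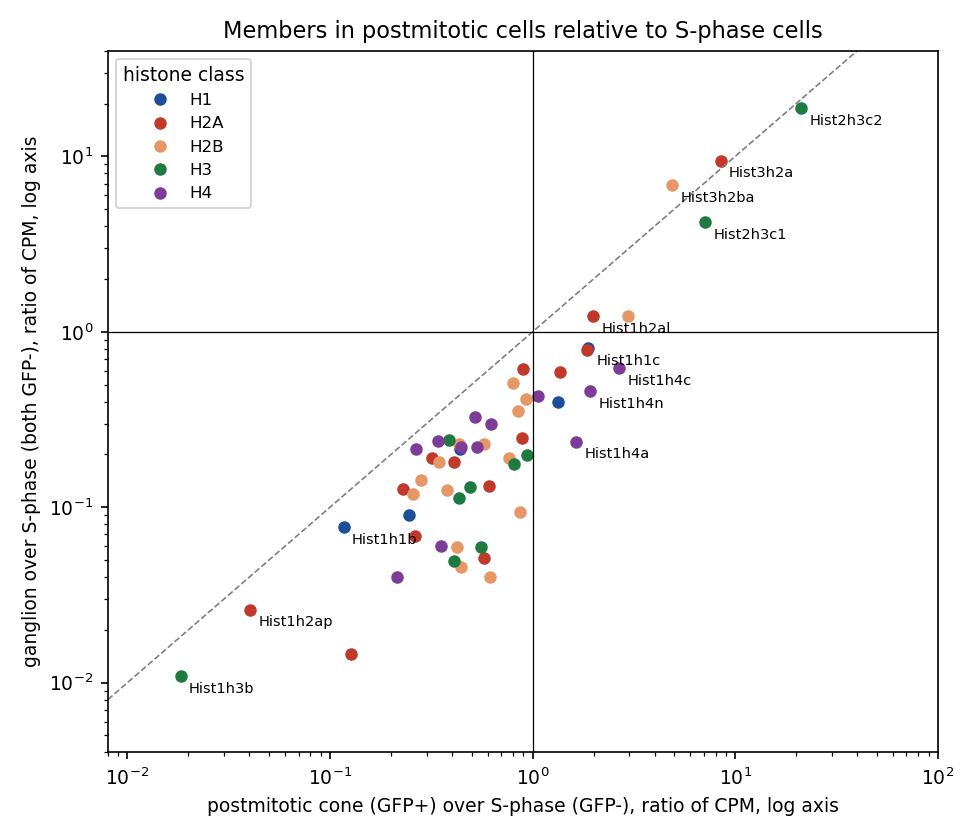
Ratio of the level in GFP+ cones (x axis) and in ganglion cells (y axis) to the level in S-phase cells, both from CPM on log axes, for 57 members coloured by histone class; 4 members with no ganglion UMI are left off and the dashed line marks equal ratios. Most points lie below the dashed line and below 1 on the y axis. Above 1 on both axes lie Hist3h2a, Hist3h2ba, Hist2h3c1 and Hist2h3c2, and also Hist1h2al and Hist2h2bb of ENSMUSG00000050936. In UMIs per cell the x values are lower and the y values slightly higher.

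By histone class, the difference between S-phase cells and postmitotic cells was greatest for H2A and turned for H2B, and each rested on 1 gene. H2A members summed to 5244 CPM in S-phase and 962 CPM in GFP+ cones, a ratio of 5.45 (5.34–5.57), and Hist1h2ap made up most of the S-phase sum. Without Hist1h2ap, a sum added after values were seen, H2A stood at 546 CPM in S-phase and 772 CPM in GFP+ cones, and its ratio turned to 0.707 (0.680–0.735) in CPM, while it was 1.65 in UMIs per cell. Hist3h2a and the annotated pseudogene Hist1h2al made up the greater part of this cone sum. Most H2A members were lower in cones. In CPM, 5 of 18 were at or above their S-phase level, against 65.4% of 13898 genes, and the median cone over S-phase ratio was 0.595. H3 members summed to 263 CPM in S-phase, 142 CPM in cones, 45.3 CPM in ganglion and 48.6 CPM in amacrine/horizontal cells. H1 members summed to 531, 400, 154 and 146 CPM and H4 members to 548, 424, 158 and 115 CPM in these 4 classes. H2B members summed to 795 CPM in S-phase cells, 1204 CPM in cones, 1315 CPM in ganglion and 1447 CPM in amacrine/horizontal cells. The S-phase over cone ratio of H2B was thus 0.660 (0.639–0.682) in CPM but 1.54 (1.49–1.59) in UMIs per cell, and Hist3h2ba provided the greater part of the H2B sum in GFP+ cones and in both neuron classes. Without Hist3h2ba, H2B stood at 625 CPM in S-phase and 374 CPM in GFP+ cones, and its ratio turned to 1.67 (1.60–1.74).

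As shares of member UMIs, H2A made up 71.1%, H2B 10.8%, H4 7.42%, H1 7.19% and H3 3.57% in S-phase cells. In ganglion cells H2B made up 55.0%, H2A 30.1%, H4 6.61%, H1 6.45% and H3 1.89%. In GFP+ cones H2B made up 38.4%, H2A 30.7%, H4 13.5%, H1 12.8% and H3 4.54%, so that the shares of H4, H1 and H3 were above those of both other classes. The core histones are built into nucleosomes in equal numbers. These shares are of captured poly(A)-primed RNA, and the supply of each histone was not measured.

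Among the most abundant members of each class in S-phase cells, Hist1h1b (H1) was at 155 CPM in S-phase, 229 CPM in G2/M, 18.1 CPM in GFP+ cones, 12.0 CPM in ganglion and 5.72 CPM in amacrine/horizontal cells. In GFP+ cones Hist1h1b was therefore far below its S-phase level in CPM while Hist1h1c and Hist1h1e, of the same class, were above theirs. Hist1h1a was at 99.4 CPM in S-phase and 24.3 CPM in cones. Hist2h2aa1 (H2A) was at 132, 260, 119, 80.9 and 65.0 CPM in S-phase, G2/M, cone, ganglion and amacrine/horizontal cells. Hist1h2bc (H2B) was at 120, 188, 112, 49.8 and 41.4 CPM in the same order, and Hist1h2bm at 91.5, 144, 25.6, 13.1 and 15.0 CPM. Of the H3 genes, Hist1h3a was at 45.6 CPM and Hist1h3e at 42.4 CPM in S-phase cells, with 18.7 and 34.4 CPM in cones. Of the H4 genes, Hist1h4i was at 176 CPM, Hist1h4d at 55.7 CPM and Hist1h4h at 53.0 CPM in S-phase cells, with 110, 24.6 and 28.2 CPM in cones.

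The remaining members, named after values were seen, differed among themselves. The other H2A genes ranged from 0.16 CPM (Hist2h2aa2) to 71.5 CPM (Hist1h2ae) in S-phase cells. Hist1h2ae stood at 18.8 CPM in GFP+ cones and 4.87 CPM in ganglion cells, and Hist1h2ak at 35.6, 11.4 and 6.75 CPM in S-phase, cone and ganglion cells. Hist1h2ag stood at 25.6 and 3.23 CPM with a single ganglion UMI, whereas Hist1h2ac stood at 22.6 CPM in S-phase and 20 CPM in cones.

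The other H2B genes ranged from 4.13 CPM (Hist1h2bh) to 74 CPM (Hist1h2bj) in S-phase cells. Hist1h2bj stood at 32 CPM in GFP+ cones and 16.9 CPM in ganglion cells, and Hist1h2bp at 69.1, 17.7 and 8.24 CPM in S-phase, cone and ganglion cells. The greatest cone over ganglion ratio of all members with a ganglion UMI was that of Hist1h2bn, at 18.7 CPM in S-phase, 11.5 CPM in cones and 0.75 CPM in ganglion cells. Its ganglion value lay under 1.12 CPM, the level of 3 counts in that class, so this ratio is uncertain. Under the 2 identifiers of Hist2h2bb, ENSMUSG00000105827 stood at 45.3, 34.8 and 8.62 CPM and ENSMUSG00000050936 at 11, 32.5 and 13.5 CPM. The annotation lists the latter as a noncoding RNA gene that overlaps the former, so that reads of both cannot be told apart where they overlap.

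Of the other H3 genes, Hist1h3d (29.7, 12.9 and 3.37 CPM in S-phase, cone and ganglion cells) and Hist1h3i (25.7, 12.6 and 3.37 CPM) were lower in cones. Hist2h3b, on the cluster of Hist2h3c1, was at 24.6 CPM in S-phase and 23.2 CPM in cones but at 4.87 CPM in ganglion cells. Of the other H4 genes, Hist4h4, the only Hist4 member, was level between S-phase cells and cones (52.2 and 55.7 CPM, ratio 1.07, 0.933–1.22) and at 22.5 CPM in ganglion cells. Hist1h4j (33.2 and 11.4 CPM) and Hist1h4k (21 and 5.6 CPM) were lower in cones. Hist1h1d, the other H1 gene, was at 65 CPM in S-phase and 28.6 CPM in cones, between Hist1h1a and Hist1h1e in its cone over S-phase ratio (0.441, 0.381–0.509).

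By cluster, 7 of 49 Hist1, 5 of 11 Hist2 and both Hist3 members were at or above their S-phase level in GFP+ cones in CPM, against 65.4% of 13898 genes. In UMIs per cell these counts were 1, 4 and 2, against 3507 of the 13898 genes. By class the CPM count was 2 of 5 H1, 5 of 18 H2A, 2 of 16 H2B, 2 of 12 H3 and 4 of 12 H4 members. Apart from the Hist3 pair, every one of these CPM shares was below that of all genes. Members with a poly(A) signal near the end of the transcript model had a median cone over S-phase ratio of 0.712 (6 of 14 at or above 1, against 65.4% of all genes), and those without one had a median of 0.442 (9 of 47). The ranges of both groups overlapped widely (0.256 to 8.47 and 0.013 to 21.1). These are descriptions of gene models, and which end was used in these cells was not measured.

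The A-rich stretch of Hist1h2ap stood in the same letters in Hist1h2ao, yet their S-phase levels were 4698 and 1.91 CPM. Only 7.63% of the 90-base windows of Hist1h2ap and 7.16% of those of Hist1h2ao were unique, and a read placed on both genes is not counted. Both levels, and the difference between these 2 genes, are therefore uncertain. Over all members, 31 had fewer than 60% unique windows.

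The gates themselves were compared next, as the cells had been sorted to find genes enriched in early cones. The summed level was 4958 CPM for GFP− against 3218 CPM for GFP+ cells, a ratio of 1.54 (1.53–1.56), or 3.26 in UMIs per cell. Hist1h2ap stood at 2530 and 225 CPM (76200 and 3496 UMIs), a ratio of 11.2 (10.8–11.6). The other 62 members stood at 1858 and 1866 CPM, a ratio of 0.995 (0.981–1.01) in CPM and 2.1 in UMIs per cell. The Hist3 pair stood at 570 and 1126 CPM, a ratio of 0.506 (0.496–0.517) in CPM and 1.07 in UMIs per cell. Without Hist1h2ap the total of the gates turned to 0.811.

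Of 64 members tested between the gates, 17 were 2-fold or more higher in GFP− cells, against 16.8% of 15237 genes, and 10 were 2-fold or more lower, against 23% of genes. The counts were 43 and 2 in UMIs per cell, against 6323 and 1205 of the 15237 genes. That scale moves the median of all genes by 1.08 (log2). The greatest ratios were those of Hist1h3c (20.8, 12.3–38.2), Hist1h3b (15.4, 9.98–25), Hist1h3g (13.6, 7.84–25.8), Hist1h2ap (11.2) and Hist1h2ah (10.4, 4.90–26.3). Hist1h1b followed with 4.86 (4.32–5.48). The first 5 genes were also those with the lowest cone over S-phase ratios. That match is not a separate result, because 3141 of the 3689 GFP+ cells were the cones compared above and the S-phase cells were part of the GFP− library. A ratio at or above 1 was seen for 40 of the 64 members, against 38.6% of genes. Members below 1 included Hist2h3c1 (0.234, 0.196–0.278), Hist2h3c2 (0.297, 0.215–0.409), Hist3h2a (0.397, 0.380–0.415) and Hist3h2ba (0.544, 0.531–0.558), the last short of the 2-fold limit. These 4 ratios were, in UMIs per cell, 0.494, 0.629, 0.840 and 1.15, and Hist3h2ba thus turned.

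Cells of the same class but of different gates were also compared, since each gate is 1 library and gate and library cannot be told apart. GFP+ cones were 2-fold or more higher than GFP− cones for 32 of 58 members, against 28.5% of 12958 genes, and the other 62 members summed to a ratio of 1.64 (1.45–1.86). In UMIs per cell the count was 25, against 3101 of the 12958 genes, and the ratio of the sum was 1.28 (1.13–1.46). The 45 GFP− cones held 257 UMIs of these 62 members together, so ratios of single members are uncertain. One member, Hist1h2ab, was 2-fold or more lower (0.477, with 1 UMI in GFP− cones), against 7.94% of genes. In G2/M cells, of which the GFP+ library held 9, the GFP+ cells were 2-fold or more higher for 31 of 61 members, against 14% of 11557 genes, and the sum of the other 62 had a ratio of 2.06 (1.91–2.22). Lower by 2-fold or more were 3 members, against 33.5% of genes. Hist1h2ap did not share this, with ratios of 0.959 (0.717–1.31) in cones and 0.815 in G2/M cells. GFP− cones at or above the S-phase level of their own library were seen for 7 of 60 members, against 53.6% of genes, compared with 15 of 63 for GFP+ cones.

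Single cells of 1 class differed widely. The Hist1h2ap count of S-phase cells had a 10th percentile of 1, a median of 19 and a 90th percentile of 116 UMIs with a highest value of 205, and its variance was 50.1 times its mean. In G2/M cells the median was 63, in GFP+ cones 0 with a highest value of 17, and in ganglion cells 1. The sum of the other 62 members had a median of 15 UMIs in S-phase, 24.5 in G2/M, 5 in cone and 6 in ganglion cells, with variances of 24.7, 31.8, 8.88 and 6.78 times the mean. Hist1 members other than Hist1h2ap and the Hist2 members, from separate chromosomes, varied together among cells with a Pearson r of 0.82 over 668 S-phase and 0.83 over 654 G2/M cells, and of 0.55 over 3141 cones. Each sum was divided by the total UMIs of its cell before correlation, and any remaining part of depth was not tested. The cells of each correlation share 1 library.

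One gene that was not a member separated the cells within each class, and it was chosen after values were seen. Cells with a UMI of Gm26917, an annotated noncoding RNA, had higher levels of the other 62 members than cells without one in every class compared. The values were 2822 CPM (2775–2869) and 1279 CPM (1220–1339) in S-phase, 4218 and 1893 CPM in G2/M, 1122 and 484 CPM in G1/S, 2144 and 1216 CPM in GFP+ cone, 858 and 354 CPM in ganglion and 769 and 551 CPM in amacrine/horizontal cells. In the 45 GFP− cones the values were 1250 CPM (1070–1452) and 894 CPM (714–1105), with overlapping intervals. Cells with a Gm26917 UMI had the higher median depth in every class, from 9427 against 9335.5 UMIs in S-phase cells to 8927 against 7881 in G1/S cells, with 3980 against 3574 in GFP+ cones and 5130 against 4460 in GFP− cones. Hist1h2ap differed less in cycling cells, with 4649 and 4867 CPM in S-phase, 6198 and 5993 CPM in G2/M and 359 and 318 CPM in G1/S cells. In postmitotic cells it stood at 200 and 170 CPM in GFP+ cones, 128 and 92.3 CPM in ganglion cells and 89.9 and 49.9 CPM in amacrine/horizontal cells, and at 167 and 242 CPM, with overlapping intervals, in GFP− cones. It was thus higher with Gm26917 in all classes but S-phase cells and GFP− cones. The intervals overlapped, however, in ganglion cells (114–144 and 66.8–124 CPM) and in amacrine/horizontal cells (71.2–112 and 32.6–73.1 CPM). The part of depth in this split was not tested, and RNA quality and nuclear content of the cells were not measured.

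**Figure D5:**
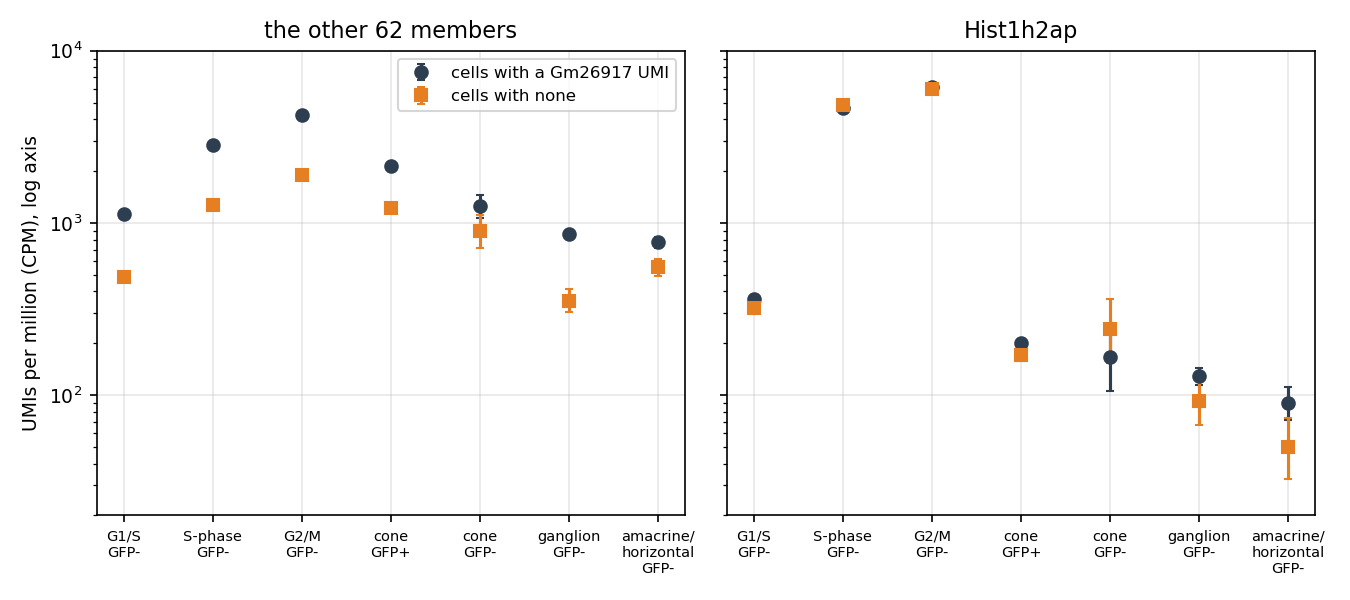
Levels (CPM, log axis) of the other 62 members (left) and of Hist1h2ap (right) in cells of each class with and without a UMI of Gm26917; bars are exact 95% Poisson intervals. On the left the cells with Gm26917 were higher in every class, with overlapping intervals in GFP− cones, whereas on the right S-phase and G2/M cells of both kinds were nearly level.

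Factors that make, process or deposit histones were taken as a list of 23 genes, all of which were found. Of these, 12 were 2-fold or more higher in S-phase cells than in GFP+ cones, against 15.4% of all genes, and 2 were lower, against 31.2%. In neurons none of 22 tested was 2-fold or more higher than in S-phase cells and 13 were lower, against 18.6% of genes in each direction, with a median log2 ratio of −1.72 for the list and 0.06 for all genes. Slbp, whose product binds the stem-loop, was at 348 CPM in S-phase, 191 CPM in G2/M, 119 CPM in GFP+ cones and 67.1 CPM in ganglion cells. It was thus, like Hist1h2ap, higher in S-phase cells than in cones, but unlike Hist1h2ap not higher in G2/M than in S-phase cells. Ccne2, the cyclin E2 gene, was at 71.8, 11.9, 1.81 and 0.75 CPM in these 4 classes. The histone chaperone genes Chaf1a, Asf1b and Nasp were at 90.2, 67.6 and 427 CPM in S-phase cells and at 4.34, 1.81 and 102 CPM in cones. Npat, which encodes the coactivator of histone gene transcription, was low throughout, at 12.4 CPM in S-phase and 5.99 CPM in cones. Lsm10, a component of the U7 ribonucleoprotein that cuts histone pre-mRNA, stood at 43.2 and 47.5 CPM, and Cpsf3, which encodes the endonuclease, at 31.8 and 56.9 CPM. The 2 factors that were 2-fold or more lower in S-phase cells than in cones in CPM were Zfp473 (0.48 and 1.26 CPM) and Hinfp (2.22 and 5.68 CPM). The S-phase value of Zfp473 lay at the level of 3 counts and is uncertain.

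Promoter sequence (RefSeq, GRCm38.p6, 250 bases before to 50 after the start) was matched for 57 members and searched on both strands. The CCAAT box was found in 84.2% of member promoters and 37.9% of 27025 promoters, in all H1, H2A, H2B and H3 promoters matched but in 25% of H4 promoters. TATAAA was found in 57.9% and 14.2%, and TGACGTCA in 7.02% and 1.88%. The octamer ATTTGCAT, known from H2B promoters, was found in 19.3% of member promoters (6 H2A and 5 H2B members) and 1.75% of all promoters. Both identifiers of Hist2h2bb are among these H2B members, and they were matched to the same window. Divergent H2A and H2B neighbours share these promoter windows and are not separate cases. The octamer is given in capitals for such a pair, Hist1h2ah and Hist1h2bk, as read along each gene, and for Hist3h2a, all picked after values were seen.

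Hist1h2ah: tagaacttcgtATGCAAATaaagtgaaatg
Hist1h2bk: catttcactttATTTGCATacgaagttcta
Hist3h2a: gggtaaggcatATGCAAATtaggaaggctc

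The octamer lay 155, 30 and 119 bases before the annotated start in these 3 promoters. Hist1h2ah was at 0.055 and Hist1h2bk at 0.422 of the S-phase level in GFP+ cones, and Hist3h2a at 8.47. No octamer was found in the windows of Hist1h2ap or Hist3h2ba.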

How the data were processed

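Poly(A)-primed 10x Chromium 3′ v2 libraries of GFP+ and GFP− retinal cells (1 each) were deposited by the authors as filtered matrices of UMI counts, made with Cell Ranger 2.1.1 on mm10 (GRCm38), without normalization. Reads that map to more than 1 gene are not counted by that tool, which lowers near-identical histone copies. Counts were summed per class and scaled to CPM (Python 3.11.15, numpy 2.4.6, scipy 1.17.1), with exact Poisson, binomial and Clopper-Pearson intervals, and compared also as UMIs per cell. A 3′ count holds 1 tag per molecule, so no length scaling was used. Ratios needed 10 UMIs over both classes, and 2-fold was the limit of size over all genes.

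Scrublet (scanpy 1.11.5) marked 3 GFP+ and 55 GFP− cells as doublets, of which 2 and 0 passed the cell limits and were left in. Named were the 3 highest members per histone class in S-phase cells, the 8 highest in each postmitotic class, the 5 lowest and 5 highest cone over S-phase ratios, and the 23 factors. Alternatives were other cell filters, class thresholds, minimum UMIs, thinning, UMIs per cell, per-cell means and TMM (edgeR 4.0.16). Only the ratio and interval functions were tested on simulated data. The simulated counts had counting error alone and lacked the wider spread among single cells. Members, lists and alternatives were chosen with earlier results of these data known. Stem-loops, poly(A) signals and unique windows came from GENCODE vM21, which may differ from the annotation used for counting; 2 member identifiers, Hist1h2bm and Hist1h2bh, were not found in it.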

Additional observations from a re-analysis of the deposited data

Results flagged for a closer look

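A group of members had a level above that of S-phase cells in GFP+ cones and below it in GFP− ganglion cells, with both intervals clear of 1, and the difference itself was not tested because each gate was 1 library. Hist1h4n had a cone over S-phase ratio of 1.93 and a ganglion over S-phase ratio of 0.460. Hist1h1e had 1.33 and 0.398, Hist1h4c 2.68 and 0.619, Hist1h1c 1.88 and 0.804, and Hist1h4a 1.63 and 0.236. The cones and the ganglion cells came from different libraries, with median depths of 3817 and 10341 UMIs, and in UMIs per cell only Hist1h4c kept a cone ratio above 1. In GFP− cones, of the same library as the S-phase cells, Hist1h1e, Hist1h4n and Hist1h4a were not above their S-phase level in CPM, whereas Hist1h4c and Hist1h1c were.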

How the results depend on the processing

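No paired analysis was possible because each gate was 1 library and no result came from a test. Of 89 recomputed main values, 55 moved by less than counting error or 1.5 times, 32 moved by more and 2 reversed, and of 563 recomputed values of single members and shares 434, 122 and 7 did. The strict postmitotic class and other UMI minimums moved no main value. Leaving out the Scrublet doublets removed only 2 GFP+ cells and is no check of stability.

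The GFP− over GFP+ total (1.54) was 1.51 without the upper gene limit and without any cell filter, 3.26 in UMIs per cell, 1.5 as a mean of per-cell values, 1.93 with TMM and 1.44 after thinning. The S-phase over cone total (2.36) was 5.50 in UMIs per cell, 2.41 as a mean of per-cell values, 2.96 with TMM, 2.53 after thinning, 2.30 with Mcm of at least 5 and 3.17 against GFP− cones. The S-phase over neuron total (3.08) was 3.56 without the upper gene limit and without any filter, 3.35 in UMIs per cell, 3.33 with TMM, 3.38 after thinning and 3.01 with Mcm of at least 5. The H2A share in S-phase cells (71.1%) was 72.6% without the upper limit or any filter and 71.9% after thinning. Members past 2-fold between gates numbered 27 of 64, against 16.8% of 15237 genes higher in GFP− cells and 23% lower, so that the share of members was close to that of all genes. In UMIs per cell they numbered 45, against 6323 genes higher and 1205 lower. Members past 2-fold between S-phase and G2/M cells numbered 3, but 9 in UMIs per cell, 9 after thinning and 7 with Mcm of at least 5. Of 12638 genes, 5.59% were 2-fold or more higher in S-phase cells and 3.77% lower, and in UMIs per cell 572 were higher and 571 lower. The count over all genes was not made after thinning or with Mcm of at least 5. Members at or above the S-phase level in cones numbered 15, against 65.4% of 13898 genes. They numbered 7 in UMIs per cell, against 3507 genes, and 7 for GFP− cones, against 53.6% of 11844 genes.

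Alternatives chosen after seeing the data were GFP− cones, leaving out Hist1h2ap, and leaving out cells with a Gm26917 UMI. Without Hist1h2ap the 3 totals were 0.811 and 0.912, both reversed by the loss of that gene, and 1.17. Without cells with Gm26917 they were 1.49, 2.57 and 3.25, and 11 members were past 2-fold between S-phase and G2/M cells, with no count made over all genes. Single ratios that reversed were, for cone over S-phase in UMIs per cell, Hist1h1e (0.570), Hist1h2al (0.856) and Hist1h1c (0.807), Hist1h1e against GFP− cones (0.914), Hist2h2aa1 (1.52) and Hist1h3e (1.06) without Gm26917 cells, and, for neurons after thinning, Hist1h2al (0.916). The cause was not tested. Depth limits the members with few UMIs: Hist2h3c2, Hist2h2aa2, Hist1h4m and Hist1h1t had from 1 to 4 UMIs in S-phase cells.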

Other observations

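Histone variant genes outside the clusters, which were chosen after values were seen, gave a comparison for the members. H2afz, the H2A.Z gene, was at 3779 CPM in S-phase, 4949 CPM in G2/M, 842 CPM in GFP+ cones and 956 CPM in ganglion cells. H2afx was at 298, 937, 63.5 and 74.9 CPM in these classes. H3f3b, a gene of the replacement histone H3.3, was at 2631, 3901, 5413 and 3636 CPM, and H1f0, a linker histone gene known from differentiated cells, at 647, 1382, 883 and 474 CPM. All 4 were higher in G2/M than in S-phase cells, as was the sum of the members. In CPM H3f3b, like the Hist3 pair, was higher in cones and ganglion cells than in S-phase cells, whereas H2afz and H2afx were lower there. UMIs per cell shift the cone over S-phase ratio by −1.22 in log2. That puts H3f3b in cones below its S-phase level, while the Hist3 pair stayed above it with a ratio of 2.36.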
